A study of Mus musculus with 40 samples.

Results

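The genes described here are 4 cytochrome P450 genes (Cyp4a10, Cyp4a14, Cyp4a31 and Cyp4a32) and 4 acyl-CoA thioesterase genes (Acot1, Acot2, Acot3 and Acot4), 8 of the 11119 genes measured in mouse liver. They were picked by name after their levels in these livers had been seen to differ with age and time. Their levels and differences are therefore a description, carry no test, and support nothing beyond themselves. All 8 were in the tables under their own names, and all 8 had a mean level of 1 or more over the 9 groups, as had 9107 genes in all.

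Cyp4a enzymes sit in the endoplasmic reticulum and put a hydroxyl group on the far (ω) end of a fatty acid, which is then oxidised to a dicarboxylic acid and shortened in peroxisomes. Acyl-CoA thioesterases split an acyl-CoA into a free fatty acid and coenzyme A, Acot1 in the cytosol, Acot2 in mitochondria, and Acot3 and Acot4 in peroxisomes. In mouse liver several genes of both families are textbook targets of PPARα, a nuclear receptor for fatty acids that binds DNA together with RXRα and is active in fasting.

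The study followed liver regeneration after partial hepatectomy (PH), in which part of the liver is removed and the remnant grows, in 40 samples of polyadenylated RNA. The 12-month groups were ATRi at 48 h (3 mice) and 72 h (4 mice), and untreated livers before PH (0 h, 8 mice), at 48 h (3 mice) and at 72 h (4 mice). The 3-month groups were ATRi at 72 h (4 mice), and untreated livers at 0 h (7 mice), 48 h (3 mice) and 72 h (4 mice). In the 3-month group at 0 h the titles name some mice wt1, wt2 and wt3 and the others by number alone. The titles do not say what sets these mice apart. ATRi, an inhibitor of the DNA replication stress kinase ATR, was given 24 h after PH, so the ATRi livers had also undergone PH. Strain, sex and the unit of the ATRi dose are not given in the sources used here, nor is a vehicle named for the untreated mice. The labels list all 4 mice of each 12-month 72 h group and 2 of the 4 mice of each 3-month 72 h group also at 0 h. The 48 h mice are labelled M1, M2 and M3 in each group, and no such label occurs at 0 h or 72 h. Comparisons of 48 h with 0 h or 72 h therefore set different mice against each other.

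Levels are log2 values of a quantity named sigma by the authors. It is neither defined in the sources used here nor said to be per length, so no level is compared between genes. Each group has 1 deposited mean, and only the 12-month ATRi group at 72 h also has a table for each of its 4 mice, M545, M546, M547 and M548. The lowest value of a table, which bounds differences of genes near it, lay between 0.049 and 0.393 in the 9 means and between 0.272 and 0.548 in the 4 livers. Read depth is unknown.

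The labels give the tissue as liver and the cell type as hepatocytes. Hepatocyte markers had a summed log2 level of 57.5 to 61.1 over the 9 means (6 of 8 markers measured), with albumin (Alb) between 14.7 and 16.0. Markers of other liver cells were present too: summed levels were 27.9 to 42.4 for Kupffer cells and macrophages (8 of 12 measured), 21.9 to 26.9 for sinusoidal endothelium (7 of 8) and 21.3 to 27.8 for stellate cells and fibroblasts (8 of 9). Cholangiocyte markers summed to 9.33 to 11.0 (3 of 5), T, NK and B cell markers to 3.21 to 7.65 (5 of 8) and adipocyte markers to 0.369 to 1.54 (2 of 6). Neutrophil markers (5 of 9 measured) were the most uneven: they summed to 2.42 at 48 h and 17.1 at 72 h in 12-month ATRi livers, and to 11.7, 2.12 and 15.8 at 0, 48 and 72 h in 12-month untreated livers. In 3-month livers they summed to 1.22 with ATRi at 72 h, and to 2.35, 3.43 and 1.99 untreated at 0, 48 and 72 h, with up to 3 of the 5 within 0.1 of the lowest value. In such bulk samples fewer cells of a type and less RNA per cell cannot be told apart.

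Each family lies in 1 cluster (GENCODE M21, GRCm38). The Cyp4a genes span 135403 bp of chromosome 4. Cyp4a14 (ENSMUSG00000028715.2, 115486200 to 115496142) is on the minus strand, and Cyp4a10 (ENSMUSG00000066072.13, 115518264 to 115533649), Cyp4a31 (ENSMUSG00000028712.12, 115563649 to 115579015) and Cyp4a32 (ENSMUSG00000063929.6, 115600969 to 115621602) are on the plus strand. The Acot genes span 72542 bp of the plus strand of chromosome 12, in the order Acot2 (ENSMUSG00000021226.7, 83987861 to 83993873), Acot1 (ENSMUSG00000072949.6, 84009490 to 84018371), Acot4 (ENSMUSG00000052392.5, 84038379 to 84048601) and Acot3 (ENSMUSG00000021228.15, 84052144 to 84060402).

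The copies within a cluster are close in sequence, which bears on how far their levels can be told apart. Coding sequences of Cyp4a10 and Cyp4a32 were 97.2% identical, those of Cyp4a10 and Cyp4a31 96.6% and those of Cyp4a31 and Cyp4a32 96.0%, whereas Cyp4a14 was 76.2 to 76.8% identical to the other three. Acot1 and Acot2 were 95.5% identical, with a longest shared run of 273 bases. Acot3 was 83.9% identical to Acot1 and 84.3% to Acot2, and Acot4 75.2 to 76.6% to the rest. The same 60-base coding stretch of each gene, taken from the GENCODE transcripts and written 5′ to 3′, shows this at base level; capitals mark bases that differ from Cyp4a10 in the first family and from Acot1 in the second.
Cyp4a10: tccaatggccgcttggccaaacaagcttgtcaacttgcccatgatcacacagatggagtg
Cyp4a14: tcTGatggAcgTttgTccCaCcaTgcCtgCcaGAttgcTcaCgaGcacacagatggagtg
Cyp4a31: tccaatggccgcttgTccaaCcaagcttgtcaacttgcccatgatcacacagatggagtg
Cyp4a32: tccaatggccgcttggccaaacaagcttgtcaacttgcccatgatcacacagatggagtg
Acot1: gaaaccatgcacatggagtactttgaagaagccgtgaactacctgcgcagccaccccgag
Acot2: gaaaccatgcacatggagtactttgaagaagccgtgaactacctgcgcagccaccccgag
Acot3: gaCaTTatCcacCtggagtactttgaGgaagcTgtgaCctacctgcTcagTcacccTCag
Acot4: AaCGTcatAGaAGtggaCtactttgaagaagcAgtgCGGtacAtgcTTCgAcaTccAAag
Cyp4a32 and Acot2 had 0 differences from the first gene of their family in this stretch, Cyp4a31 had 2, Acot3 12, Cyp4a14 15 and Acot4 21. Of all 50-base windows of the transcript, 46.8% occurred in a transcript of another gene for Cyp4a32, 33.6% for Acot1, 30.5% for Cyp4a10, 27.7% for Acot2, 21.8% for Cyp4a31 and 19.5% for Acot3, against 4.9% for Acot4 and 0.2% for Cyp4a14. How reads shared by copies were counted is not given, so the levels of Cyp4a10, Cyp4a31 and Cyp4a32, and those of Acot1, Acot2 and Acot3, may in part stand for one another.

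Among the Cyp4a genes, Cyp4a14, a fatty acid ω-hydroxylase strongly induced by PPARα agonists in mice, moved over the widest range. In 12-month livers its level was 7.94 at 48 h and 4.91 at 72 h with ATRi, and 3.47, 9.32 and 6.16 untreated at 0, 48 and 72 h. In 3-month livers it was 7.06 with ATRi at 72 h, and 8.49, 5.57 and 7.14 untreated at 0, 48 and 72 h. Its highest mean was thus in 12-month livers at 48 h and its lowest in 12-month livers before PH. The 4 single livers had 2.77 (M545), 5.57 (M546), 1.63 (M547) and 5.48 (M548), a mean of 3.86 ± 1.98 (SD, n = 4). The mean ± SD covers both neighbouring means in the order, 3.47 in untreated 12-month livers at 0 h and 5.57 in untreated 3-month livers at 48 h.

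Cyp4a10, an ω-hydroxylase that acts on lauric and arachidonic acid, had its highest mean in 3-month livers before PH. At 12 months it stood at 1.30 and 0.48 with ATRi at 48 and 72 h, and at 1.29, 4.28 and 1.86 untreated at 0, 48 and 72 h. At 3 months it stood at 3.28 with ATRi at 72 h, and at 5.70, 2.22 and 2.65 untreated at 0, 48 and 72 h. The single livers had 0.50, 0.83, 0.51 and 0.99 (0.71 ± 0.24, SD, n = 4). In M545 and M547 this is the lowest value listed for any gene of that liver, so the gene's distance below the other groups is bounded there. The deposited mean lies below all 4 livers, as it does for 826 genes (7.43%).

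Cyp4a31, a close relative of Cyp4a10, ran more like Cyp4a14. It had 4.39 and 1.88 with ATRi at 48 and 72 h at 12 months, and 1.72, 5.39 and 3.56 untreated at 0, 48 and 72 h. In 3-month livers it had 4.16 with ATRi at 72 h, and 4.77, 3.70 and 4.85 untreated at 0, 48 and 72 h. The single livers had 1.29, 2.43, 1.68 and 1.97 (1.84 ± 0.48, SD, n = 4), a range that includes the 12-month mean at 0 h and no other group mean. Cyp4a32, the copy nearest to Cyp4a10, had 2.44 and 0.75 with ATRi at 48 and 72 h at 12 months, and 3.07, 4.35 and 2.35 untreated at 0, 48 and 72 h. Its 3-month means were 2.72 with ATRi at 72 h, and 4.31, 2.58 and 2.23 untreated at 0, 48 and 72 h. The 4 livers had 0.83, 0.95, 0.90 and 0.73 (0.85 ± 0.10, SD, n = 4), all below every other group mean and as little as 0.18 above the lowest value of their table.

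Acot1, the cytosolic thioesterase, was high at 48 h at both ages. At 12 months it had 6.11 and 2.29 with ATRi at 48 and 72 h, and 2.75, 5.92 and 3.32 untreated at 0, 48 and 72 h. At 3 months it had 2.75 with ATRi at 72 h, and 3.25, 4.88 and 2.43 untreated at 0, 48 and 72 h. Acot1 thus had its 3 highest means in the 3 groups at 48 h, as Acot2 had and the other 6 genes had not. Its single livers had 1.56, 2.67, 1.69 and 2.83 (2.19 ± 0.65, SD, n = 4).

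Acot2, the mitochondrial copy of Acot1, was nearly level at 3 months and uneven at 12 months. Its 12-month means were 4.36 and 2.14 with ATRi at 48 and 72 h, and 2.42, 5.36 and 3.19 untreated at 0, 48 and 72 h. The 3-month means were 3.20 with ATRi at 72 h, and 3.12, 3.39 and 3.19 untreated at 0, 48 and 72 h. The 4 livers fell into a low pair, 1.53 in M545 and 1.59 in M547, and a high pair, 2.52 in M546 and 2.46 in M548 (2.02 ± 0.54, SD, n = 4).

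Of the peroxisomal pair, Acot3, which hydrolyses long-chain acyl-CoA, had 3.99 and 2.94 with ATRi at 48 and 72 h at 12 months, and 1.97, 4.87 and 2.997 untreated at 0, 48 and 72 h. In 3-month livers it had 2.56 with ATRi at 72 h, and 4.24, 2.76 and 2.71 untreated at 0, 48 and 72 h. Its 12-month mean before PH was the lowest of the 9, and M545, M546, M547 and M548 had 2.77, 2.70, 1.83 and 3.58 (2.72 ± 0.71, SD, n = 4). Acot4, which in mice hydrolyses succinyl-CoA and other dicarboxylyl-CoAs, moved least. It had 4.19 and 2.69 with ATRi at 48 and 72 h at 12 months, and 3.04, 4.46 and 3.43 untreated at 0, 48 and 72 h. Its 3-month means were 2.96 with ATRi at 72 h, and 4.04, 3.58 and 2.53 untreated at 0, 48 and 72 h. The livers had 2.44, 2.62, 2.30 and 3.05 (2.60 ± 0.33, SD, n = 4), and the means of the 3-month groups at 72 h and of the 12-month group before PH lie within that range.

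**Figure D1:**
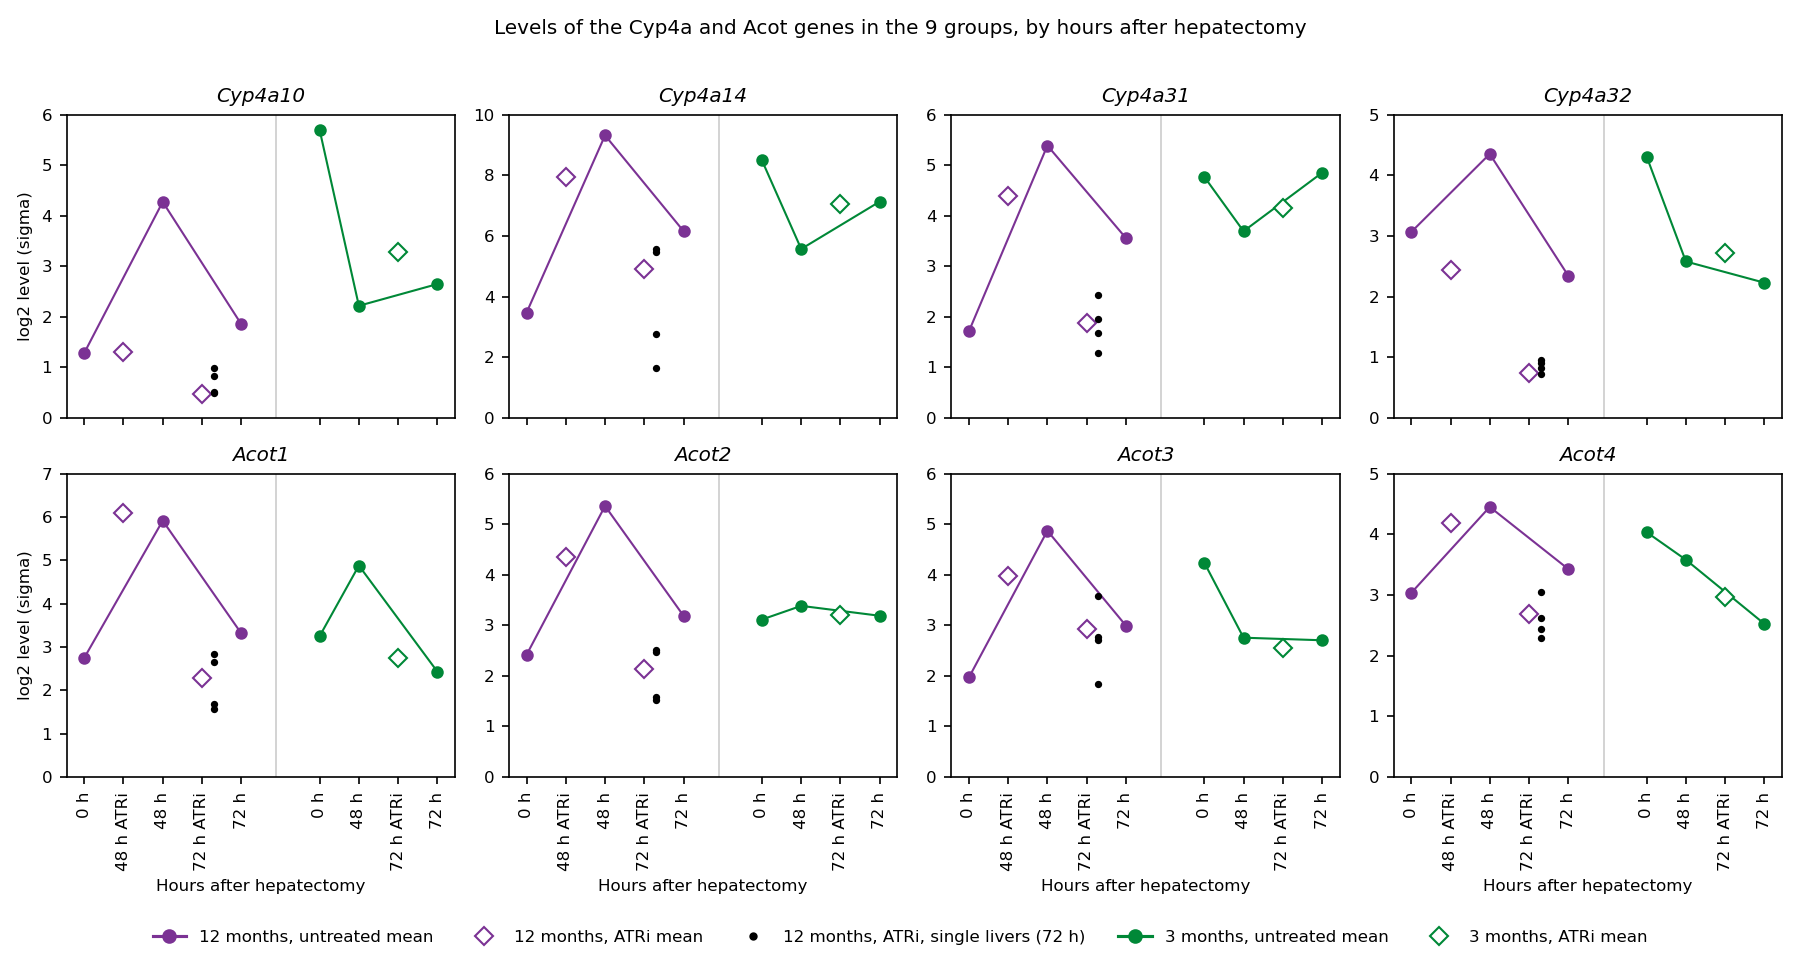
Log2 level (sigma, vertical axis) of each Cyp4a and Acot gene in the 9 groups, 12-month groups left and 3-month groups right of the grey line. Filled circles joined by lines are untreated means, open diamonds ATRi means and black dots the 4 single livers; all 8 genes peak at 48 h among the untreated 12-month means (Cyp4a14 at 9.32), while at 3 months the 4 Cyp4a genes are lower at 48 h than at 0 h.

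Before PH, the first comparison asks how 12-month livers differed from 3-month livers. All 8 genes were lower at 12 months, with a median difference of −1.76, and 6 were lower by 1 or more. Such a difference, in either direction, was found for 1.27% of all genes, whose median difference was −0.05. Because the genes were chosen on these same values, nothing is read from that contrast here or in the counts that follow. Among the Cyp4a genes, Cyp4a14 differed by −5.02, the largest size of any gene, Cyp4a10 by −4.42, Cyp4a31 by −3.06 and Cyp4a32 by −1.24. In the Acot cluster Acot3, at −2.27, lay below Cyp4a32, Acot4 differed by −1.001, and Acot2 (−0.70) and Acot1 (−0.50) stayed under 1. Neutrophil markers summed to 11.7 at 12 months and 2.35 at 3 months before PH, and those of Kupffer cells and macrophages to 35.5 and 29.4; their part in these differences was not tested.

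At 48 h the order of the ages was the other way round. All 8 genes were higher in 12-month than in 3-month livers, with a median of 1.88, and 7 were higher by 1 or more, against 1.36% of all genes in either direction. Cyp4a14 differed by 3.75, Acot3 by 2.12, Cyp4a10 by 2.06, Acot2 by 1.98, Cyp4a32 by 1.77, Cyp4a31 by 1.70 and Acot1 by 1.04, and Acot4 fell short of 1 with 0.87.

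At 72 h the 8 genes did not share a direction. Untreated 12-month livers had lower levels than 3-month livers of Cyp4a31 (−1.29), Cyp4a14 (−0.97) and Cyp4a10 (−0.79), with Cyp4a32 at 0.12. Acot4 (0.91), Acot1 (0.89) and Acot3 (0.29) were higher, and Acot2 was equal at 0.00. In this comparison 1 of the 8 genes differed by 1 or more, beside 2.74% of all genes. With ATRi at 72 h, the 4 Cyp4a genes were lower at 12 than at 3 months by 1.98 to 2.81 on the log2 scale, and of the thioesterases Acot2 differed by −1.07, Acot1 by −0.46, Acot4 by −0.28 and Acot3 by 0.37. Of the 8 genes, 5 differed by 1 or more, and the background is much larger at 13%. The Cyp4a14 value, −2.15, rests on the deposited 12-month mean, which exceeds the mean of the 4 livers' log2 levels by 1.05. With the mean log2 level of the livers kept, it was −3.77 without M546 and −3.74 without M548. At 72 h neutrophil markers summed to 17.1 at 12 months and 1.22 at 3 months with ATRi, and to 15.8 and 1.99 untreated, and their part was not tested.

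**Figure D2:**
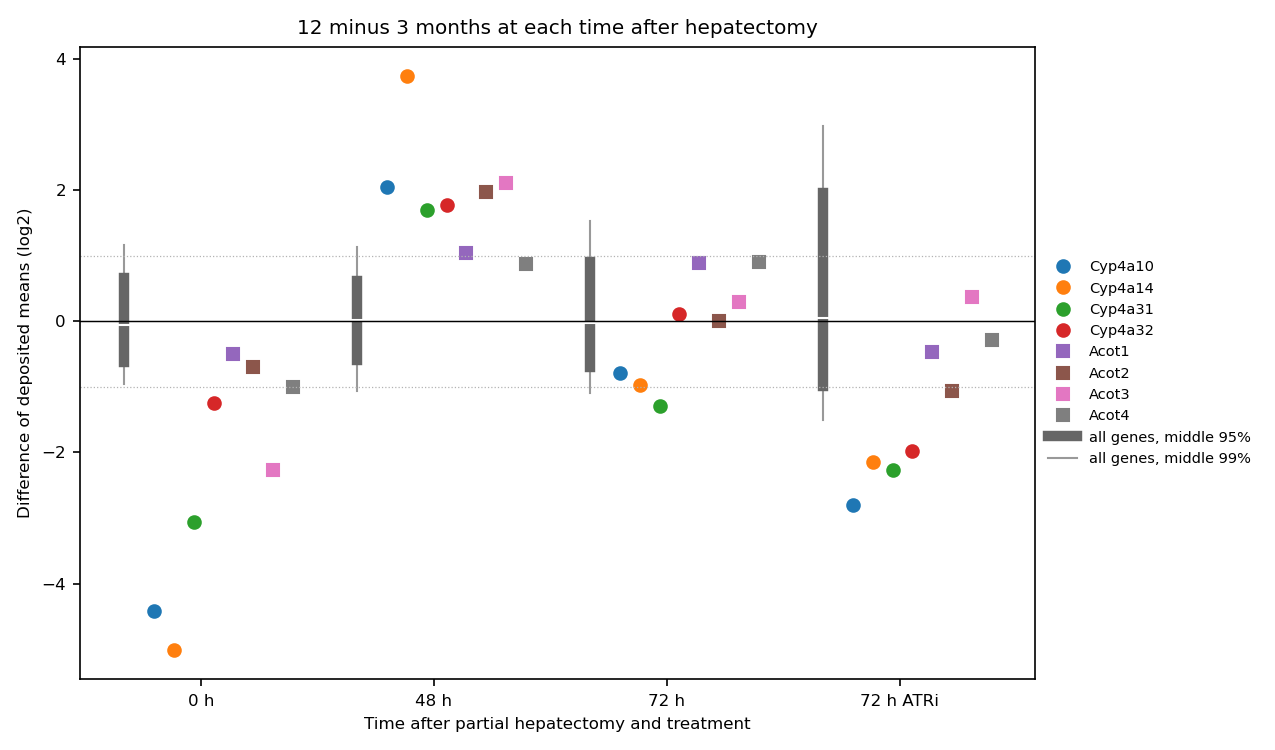
Difference of the deposited log2 means, 12 minus 3 months (vertical axis), for each gene at 0, 48 and 72 h untreated and at 72 h with ATRi, with dotted lines at 1 and −1. Circles are Cyp4a and squares Acot genes, and grey bars span the middle 95% and 99% of all genes; the 8 genes lie below 0 at 0 h and above 0 at 48 h.

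The next comparisons ask how the genes changed after PH at each age. In 12-month livers all 8 were higher at 48 h than at 0 h, each by 1 or more, with a median of 2.97 (5.12% of all genes in either direction). Cyp4a14 differed by 5.85, the largest difference of any gene, Cyp4a31 by 3.68, Acot1 by 3.17, Cyp4a10 by 2.99, Acot2 by 2.95, Acot3 by 2.90, Acot4 by 1.42 and Cyp4a32 by 1.29. By 72 h all 8 were lower than at 48 h, by a median of 2.09 on the log2 scale and each by 1 or more (5.21% of all genes). Against 0 h, the 72 h means were still higher for 7 genes, by 1 or more for 3 of them, Cyp4a14 (2.69), Cyp4a31 (1.85) and Acot3 (1.03), beside 3.93% of all genes. Cyp4a32 was the exception at −0.72. From 0 to 48 h and from 48 to 72 h the neutrophil markers moved the opposite way, with sums of 11.7, 2.12 and 15.8 at 0, 48 and 72 h, and so did those of Kupffer cells and macrophages at 35.5, 27.9 and 42.4. The part of either in these differences was not tested, and hepatocyte markers summed to 57.5, 58.9 and 59.6.

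In 3-month livers at 48 h, all 4 Cyp4a genes and 2 of the 4 Acot genes were lower than at 0 h. Cyp4a10 differed by −3.48, the lowest difference of any gene, Cyp4a14 by −2.92, Cyp4a32 by −1.73 and Cyp4a31 by −1.08. Acot1 was higher by 1.63 and Acot2 by 0.27, whereas Acot3 differed by −1.48 and Acot4 by −0.46. In all, 6 of the 8 genes differed by 1 or more, beside 6.43% of all genes. At 72 h against 0 h, 5 of 8 differed by 1 or more, all lower (4.49% of all genes in either direction): Cyp4a10 by −3.05, Cyp4a32 by −2.08, Acot3 by −1.54, Acot4 by −1.51 and Cyp4a14 by −1.36. Cyp4a31 (0.08) and Acot2 (0.07) were back at their 0 h level. Between 48 and 72 h, 4 of 8 differed by 1 or more (4.65% of all genes), Cyp4a14 and Cyp4a31 being higher at 72 h by 1.56 and 1.16, and Acot1 and Acot4 lower, with −2.45 and −1.06. Neutrophil marker sums were 2.35, 3.43 and 1.99 at 0, 48 and 72 h at this age.

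The change at 48 h can also be set side by side between the ages. The 12-month change minus the 3-month change was 8.77 for Cyp4a14, the highest of all genes, 6.47 for Cyp4a10, the next, and 4.75 for Cyp4a31, 4.39 for Acot3, 3.02 for Cyp4a32, 2.68 for Acot2, 1.87 for Acot4 and 1.54 for Acot1. Of the 8 genes, 6 are among the 10 highest of all genes, while Acot4 has rank 36 and Acot1 rank 72. At 72 h the same quantity was smaller for 7 of the 8 and slightly larger for Acot4: it was 4.05 for Cyp4a14, 3.62 for Cyp4a10, 2.56 for Acot3, 1.91 for Acot4, 1.77 for Cyp4a31, 1.39 for Acot1, 1.36 for Cyp4a32 and 0.70 for Acot2. These differences rest on the same means as the comparisons above, share the 0 h livers between the 2 times, and are no separate evidence.

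With ATRi, 12-month livers at 48 h again had higher levels than at 0 h for 7 of the 8 genes, 6 of them by 1 or more, with a median of 1.98 (5.2% of all genes). Cyp4a14 differed by 4.46, Acot1 by 3.36 and Cyp4a31 by 2.68, but Cyp4a10 by 0.01 and Cyp4a32 by −0.63. At 72 h with ATRi, against 48 h with ATRi, all 8 were lower and 7 by 1 or more, in a comparison in which 19.7% of all genes differed by as much. Acot1 had the lowest difference of any gene, −3.82, followed among the 8 by Cyp4a14 at −3.03 and Cyp4a31 at −2.51. That order of the first 2 turns with the mean of the 4 livers' log2 levels, which gave −4.08 for Cyp4a14 and −3.92 for Acot1, and Cyp4a14 was at −4.65 without M546 and −4.62 without M548. Neutrophil markers summed to 17.1 at 72 h and 2.42 at 48 h in these ATRi livers, and their part was not tested. Against 0 h, 2 of the 8 differed by 1 or more at 72 h, Cyp4a32 by −2.32 and Cyp4a14 by 1.44, beside 18.1% of all genes. The Cyp4a14 value rests on which livers are counted: it was 0.39 with the mean of the 4 livers' log2 levels, 0.75 without M545, −0.18 without M546 and −0.15 without M548. At 3 months, ATRi livers at 72 h were lower than 0 h livers in 7 of the 8 genes, 5 of them by 1 or more (3.51% of all genes), led by Cyp4a10 at −2.42 and Acot3 at −1.68.

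The direct comparison of ATRi with untreated livers of the same age and time used no 0 h livers. At 12 months and 48 h, 7 of 8 genes were lower with ATRi, with a median of −1.003, and 4 were lower by 1 or more, beside 0.576% of all genes. Cyp4a10 had the lowest difference of all genes, −2.98 (1.30 with ATRi and 4.28 untreated). Cyp4a32 differed by −1.92, Cyp4a14 by −1.38 and Acot2 by −1.01, Cyp4a31 lay just short of the mark at −0.998, Acot3 differed by −0.89 and Acot4 by −0.27, and Acot1 was higher at 0.19. Neutrophil markers summed to 2.42 with ATRi and 2.12 untreated in this comparison, and hepatocyte markers to 59.3 and 58.9. Stellate cell and fibroblast markers summed to 26.7 with ATRi and 22.5 untreated, with Col1a1 at 4.204 and 2.846 and Col3a1 at 4.46 and 3.38. T, NK and B cell markers summed to 3.21 and 4.82, those of Kupffer cells and macrophages to 28.6 and 27.9, and the part of any of these lists was not tested.

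At 12 months and 72 h, all 8 genes were lower with ATRi than untreated, 6 of them by 1 or more, beside 8.39% of all genes, and the median of the 8 was −1.15 where that of all genes was 0.08. By that size 840 of all genes exceeded their untreated level and 93 fell short of it, so most large differences ran the other way. The 4 Cyp4a genes lay between −1.68 and −1.25, Acot2 at −1.06, Acot1 at −1.03, Acot4 at −0.75 and Acot3 at −0.06. Cyp4a14, at −1.25 from the deposited mean, was at −2.30 with the mean of the 4 livers' log2 levels, −1.94 without M545, −2.87 without M546 and −2.84 without M548. T, NK and B cell markers summed to 5.42 with ATRi and 7.65 untreated, neutrophil markers to 17.1 and 15.8 and those of Kupffer cells and macrophages to 40.0 and 42.4, and their part was not tested. At 3 months and 72 h, 0 of the 8 differed by 1 or more, beside 0.18% of all genes. There 5 were higher and 3 lower with ATRi, between −0.70 (Cyp4a31) and 0.63 (Cyp4a10). Whether the ATRi differences at the 2 ages themselves differ was not tested, since the 3-month groups have no single livers.

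**Figure D3:**
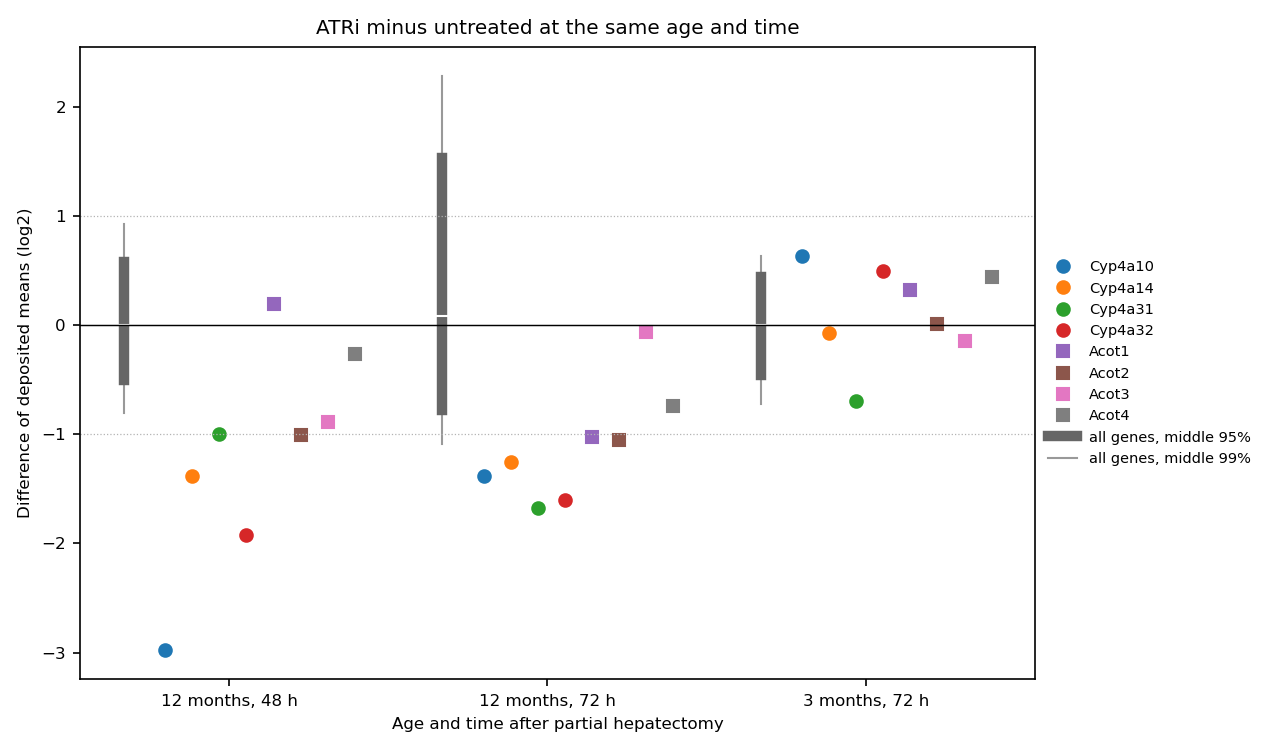
Difference of the deposited log2 means, ATRi minus untreated (vertical axis), for each gene in 12-month livers at 48 and 72 h and in 3-month livers at 72 h, with dotted lines at 1 and −1. Grey bars span the middle 95% and 99% of all genes; at 12 months and 48 h Cyp4a10 lies lowest at −2.98, and at 3 months all 8 genes lie between −0.70 and 0.63.

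The 4 single livers of the 12-month ATRi group at 72 h show how these genes vary between mice. In 7 of the 8 genes all 4 livers lay below the untreated 12-month mean at 72 h, as did 31 of the 32 values; the exception was Acot3 in M548, at 3.58 against a mean of 2.997. All 32 values lay below the 12-month ATRi mean at 48 h. Against the 3-month ATRi mean at 72 h, all 4 livers were lower in 5 genes (27 of 32 values), and against the 12-month mean before PH in 2 genes (21 of 32 values). The same counts over all genes were not made. The 8 genes were chosen with these values known and copies may share reads, so nothing is read from these counts.

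The mice kept much the same order across the genes. M546 and M548 were each in the upper pair in 7 of the 8 genes, and M545 and M547 in the lower pair in 7. Cyp4a14 spread the widest, with an SD of 1.98 that only 9 genes (0.081%), itself included, equal or exceed. SDs were 0.71 for Acot3, 0.65 for Acot1, 0.54 for Acot2, 0.48 for Cyp4a31, 0.33 for Acot4, 0.24 for Cyp4a10 and 0.10 for Cyp4a32, where the median over all genes was 0.23. For Cyp4a10 and Cyp4a32 the small SD goes with levels close to the lowest values of the tables. Neutrophil markers summed to 13.0 (M545), 20.5 (M546), 13.3 (M547) and 13.1 (M548) and hepatocyte markers to 57.2, 59.5, 58.0 and 56.9. Neither of these sums sets M546 and M548 together apart from M545 and M547, but others do. Sinusoidal endothelial markers summed to 25.1 in M546 and 23.9 in M548, and to 19.0 in M545 and 23.8 in M547. Cholangiocyte markers summed to 9.25 and 9.21 in M546 and M548, and to 12.7 and 10.03 in M545 and M547, and those of Kupffer cells and macrophages to 37.4 and 37.7, and to 42.6 and 38.5. Adipocyte markers, 2 measured, summed to 0.654 and 1.10 in M546 and M548, and to 1.38 and 1.22 in M545 and M547. Of these markers, Plin1 was at the lowest value of the table in every liver, and Cidea in M548. The adipocyte sums thus largely follow the lowest values of the tables, and no difference between the mice is read from them. The part of these lists in the order of the mice was not tested.

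**Figure D4:**
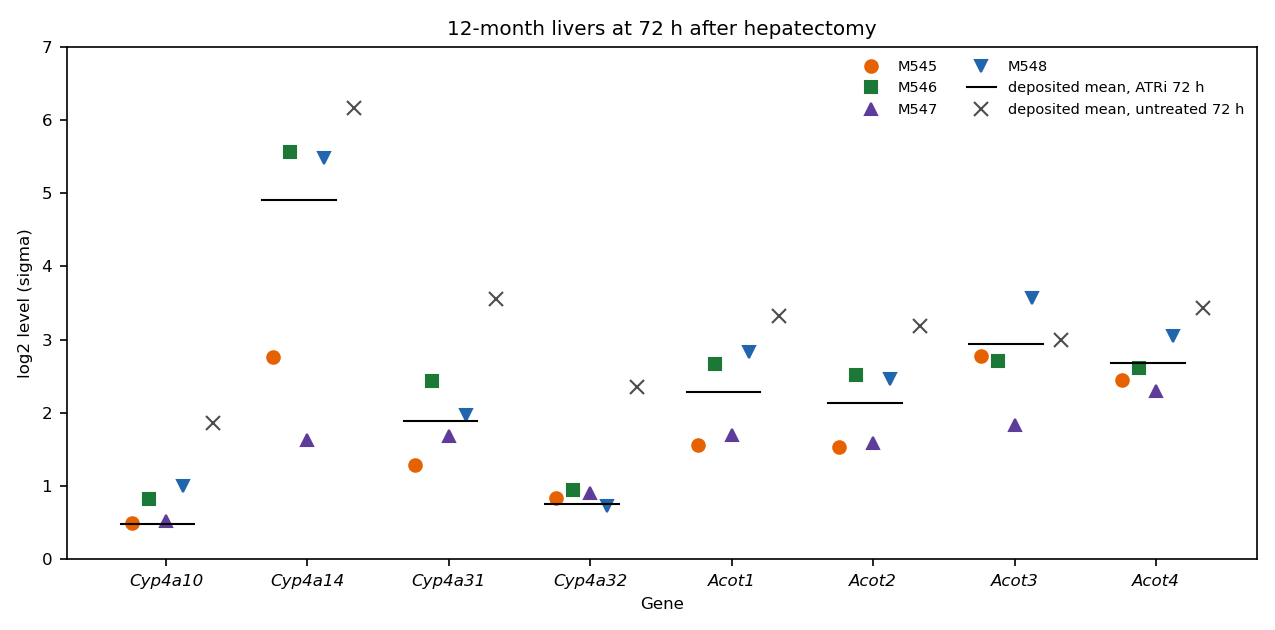
Log2 level (sigma) of the 8 genes in the 4 single 12-month ATRi livers at 72 h (coloured symbols, 1 per mouse), with the deposited mean of that group (black bar) and that of untreated 12-month livers at 72 h (cross). M546 (squares) and M548 (downward triangles) lie above M545 and M547 in Cyp4a14, at 5.57 and 5.48 against 2.77 and 1.63.

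Across the 9 deposited means the 8 genes had higher median correlations within than between families. Pearson correlations, given as a description since the means share mice and each gene was chosen for its pattern, were 0.577 to 0.935 over the 6 Cyp4a pairs (median 0.726) and 0.669 to 0.865 over the 6 Acot pairs (median 0.812). Over the 16 pairs between families they were 0.131 to 0.861 (median 0.565). The highest was between Cyp4a14 and Cyp4a31 (0.935), whose coding sequences differ more than those of Cyp4a31 and Cyp4a32 (0.586). The lowest was between Acot1 and Cyp4a10 (0.131), and Acot1 and Acot2, the nearest copies of that cluster, had 0.865.

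The genes that lie closest to these clusters were not all alike. Cyp4a12a and Cyp4a12b, male-biased ω-hydroxylases of the same chromosome 4 cluster, correlated with the mean profile of the 8 genes at 0.395 and 0.609. Cyp4a12a had 2.54 and 1.74 with ATRi at 48 and 72 h at 12 months, and 3.47, 3.01 and 2.81 untreated at 0, 48 and 72 h, with no peak at 48 h. Its 3-month means were 2.73 with ATRi at 72 h, and 3.86, 2.58 and 3.15 untreated at 0, 48 and 72 h. Acot6 lies beyond Acot5, the gene next to Acot3. At 12 months Acot6 had 2.64 and 1.47 with ATRi at 48 and 72 h, and 2.39, 2.77 and 2.41 untreated at 0, 48 and 72 h. Acot5, Cyp4a12b and Cyp4a30b, the gene next to Cyp4a14, also had their highest untreated 12-month means at 48 h (1.01, 1.37 and 0.68). At 3 months Acot5 and Cyp4a12b were lower at 48 h than at 0 h, and Acot6 was higher. Acot5 and Cyp4a30b correlated with the mean profile at 0.756 and 0.557. Cyp4a30b was at the lowest value of the table at 0 h at both ages.

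Around these enzymes, 5 lists of other genes of the pathway were examined, 89 measured genes that are not among the 8. They hold PPAR regulators (18 of 20 measured), other PPARα targets (32 of 42), other CYP4 enzymes (12 of 16), other acyl-CoA thioesterases (11 of 16) and partners of ω-oxidation (18 of 18). The thioesterase list was drawn broadly and also holds Baat, Nudt7 and Nudt19, whose main reactions are others. In the deposited means, most of the other PPARα targets were on the same side as the 8 genes. Before PH, 3 of the 32 were higher at 12 than at 3 months (median −0.43, 4 lower by 1 or more). At 48 h, 30 of the 32 exceeded their 3-month level (median 0.66, and 7 did so by 1 or more), and 27 were above their 12-month level at 0 h (median 0.62, 6 by 1 or more). In the same 12-month livers at 48 h against 0 h, 4 of 12 CYP4 enzymes and 5 of 11 thioesterases were higher, with medians of −0.16 and −0.10. Medians of all genes in those 3 comparisons were −0.05, 0.03 and −0.02. Of all 11119 genes, 4269, 6161 and 5344 were higher in them. By 1 or more in either direction 1.27%, 1.36% and 5.12% of all genes differed.

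Ppara itself, which encodes PPARα, went with most of the 8 genes in some comparisons and not in others. Over the 9 means its Pearson correlation with their mean profile was −0.298. It had 3.24 and 4.74 with ATRi at 48 and 72 h at 12 months, and 3.53, 3.59 and 4.38 untreated at 0, 48 and 72 h. At 3 months it had 4.25 with ATRi at 72 h, and 4.50, 3.49 and 4.85 untreated at 0, 48 and 72 h. Before PH it differed by −0.97 between 12 and 3 months, a comparison in which all 8 genes were lower. At 3 months it differed by −1.02 between 48 and 0 h, where 6 of the 8 were lower. The 12-month mean at 48 h, where the 8 genes peaked among untreated 12-month means, was however only 0.06 above that at 0 h for Ppara. Rxra, its partner, had 3.95 and 6.44 with ATRi at 48 and 72 h at 12 months, and 4.05, 4.08 and 5.41 untreated at 0, 48 and 72 h, so that both were at their 12-month maximum at 72 h with ATRi, where the Cyp4a genes were low.

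The pathway genes, which are not among the 8, were tested with limma in the 4 single livers. The other groups' means were weighted by their number of mice, with Benjamini-Hochberg adjustment over all genes (adjusted p under 0.05). The pathway lists, too, were chosen with earlier results of these data known. Genes named in these tests, Ppara aside, were picked for a large range over the group means, and the tested group is 1 of these. The p-values do not allow for either choice. Only the 4 livers give a spread within a group, and the test takes it to hold for the other groups as well. Each other group enters as 1 deposited mean, so the SEs and p-values below rest on the weights assumed for these means, and most calls end when each mean is given the weight of a single mouse. Against untreated 12-month livers at 72 h, 0 of 89 genes passed (0% of all genes), and 34 had an unadjusted p under 0.05, as had 37% of all genes. Without M546 13 passed as higher and 16 as lower, beside 20.3% and 8.39% of all genes. Against 12-month livers before PH, 14 passed as higher and 28 as lower in the ATRi livers, a share near the background of 48.1% of all genes, and 48 had an unadjusted p under 0.05 (56.5% of all genes). Without M547 the number higher was 8, beside 16.4% of all genes. With weight 1 for each mean, 1 was higher (Rxra) and 0 lower, beside 1.97% of all genes called. All 4 livers come from mice that also enter the 12-month mean at 0 h, which the test treats as independent.

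Against 12-month livers before PH, 23% of all genes passed as higher and 25.1% as lower with the weights by number of mice. By list, 9 of 18 PPAR regulators were higher and 2 lower, and 1 of 32 other PPARα targets was higher and 14 lower. In the thioesterase list 0 of 11 were higher and 6 lower, Baat and Nudt7 among the 6. Of the other CYP4 enzymes 0 of 12 were higher and 4 lower, and of the ω-oxidation partners 4 of 18 were higher and 3 lower. Rxra was higher by 2.43 ± 0.23 (SE, limma adjusted p = 0.00145, or 0.0499 with weight 1) and Ppara by 1.07 ± 0.16 (limma adjusted p = 0.00351, or 0.0821 with weight 1), with all 4 livers above the mean before PH in both. Ncoa2, a coactivator of nuclear receptors, was higher by 2.10, and Por, which passes electrons to cytochrome P450 enzymes, by 2.77. Nudt7, a peroxisomal hydrolase that cleaves CoA, differed by −2.33, the liver fatty acid binding protein Fabp1 by −2.02, the peroxisomal thiolase Acaa1b by −2.01, Cyp4a12a by −1.77 and the thioesterase Them4 by −1.67. Each of these kept its call whichever of the 4 livers was left out, with limma adjusted p up to 0.0371 (Fabp1 without M548). With weight 1 for each mean, all of them but Rxra lost it, with limma adjusted p between 0.0593 (Ncoa2) and 0.161 (Fabp1).

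Against 12-month ATRi livers at 48 h, 13 of the 89 were higher and 18 lower at 72 h, beside 17.8% and 20.7% of all genes (38.5% in either direction), and 43 of the 89 had an unadjusted p under 0.05, as had 49.7% of all genes. Of the targets 12 of 32 were lower and 1 higher, and of the regulators 7 of 18 were higher and 1 lower. Ehhadh, the peroxisomal bifunctional enzyme that shortens dicarboxylic acids, differed by −1.62 (limma adjusted p = 0.00393) and Aldh3a2, the fatty aldehyde dehydrogenase downstream of Cyp4a, by −1.51 (limma adjusted p = 0.00934). Lpin1, which can act as a coactivator of PPARα, was higher by 2.07. These calls held with each liver left out, but the counts did not. Without M547 8 were higher and 9 lower, beside 11% and 11.6% of all genes. Without M548 7 were higher, beside 11.6% of all genes. With weight 1 for each mean, 4 were higher and 2 lower, beside 5.98% of all genes called. Ehhadh (limma adjusted p = 0.0379) and Lpin1 (0.04) kept their calls with that weight and Aldh3a2 (0.0658) lost it.

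Against 3-month ATRi livers at 72 h, 5 of the 89 were higher in the 12-month ATRi livers and 23 lower, beside 17.3% and 12.9% of all genes (30.1% in either direction), and 48 of the 89 had an unadjusted p under 0.05, as had 46.4% of all genes. Of the targets 9 were lower and 1 higher, of the other CYP4 enzymes 4 lower and 1 higher, and of the thioesterase list 4 lower, including Nudt7. Ehhadh differed by −1.54 (limma adjusted p = 0.00548), Pdk4, the kinase that holds back pyruvate dehydrogenase, by −1.42, Aldh3a2 by −1.20 and Rxra by 1.84, each called with any 1 liver left out. Ppara did not pass (0.35 ± 0.19, SE, limma adjusted p = 0.179). Without M546 10 were higher, beside 23.8% of all genes. Without M547 2 were higher and 8 lower, beside 6.45% and 3.19% of all genes. Without M548 2 were higher and 11 lower, beside 6.78% and 3.85%. With weight 1 for each mean 0 of the 89 passed in either direction, beside 0.018% of all genes, so each call named here is lost, that of Ehhadh at a limma adjusted p of 0.0886. In these livers Kupffer cell and macrophage markers summed to 40.0, against 30.5 in 3-month ATRi livers at 72 h and 28.6 in 12-month ATRi livers at 48 h. Neutrophil markers summed to 17.1, against 1.22 and 2.42 in the same groups, and the part of either list in the calls was not tested.

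The genes whose 9 means ran most like the mean profile of the 8, among 4020 others with a range of 1 or more, were searched by Pearson correlation. The closest were Creb3l3 (0.960), an ER-bound transcription factor of fasting, Hsdl2 (0.939), a peroxisomal dehydrogenase-like protein, Isoc2a (0.931), Angptl4 (0.924), an inhibitor of lipoprotein lipase, Aox1 (0.916), an aldehyde oxidase, Aldh3a2 (0.914), Paqr7 (0.909), a membrane progestin receptor, and Hsd17b6 (0.909), a steroid and retinol dehydrogenase. By rank correlation 4 of these 8 stayed among the first 8. In all 51 genes reached 0.8. Creb3l3 had 8.78 and 7.87 with ATRi at 48 and 72 h at 12 months, and 8.23, 9.03 and 8.32 untreated at 0, 48 and 72 h. Its 3-month means were 8.32 with ATRi at 72 h, and 8.76, 8.41 and 8.29 untreated at 0, 48 and 72 h, so its range of 1.16 is narrow beside the 5.85 of Cyp4a14. Angptl4 had 7.11 and 6.34 with ATRi at 48 and 72 h at 12 months, and 6.47, 8.17 and 7.07 untreated at 0, 48 and 72 h.

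**Figure D5:**
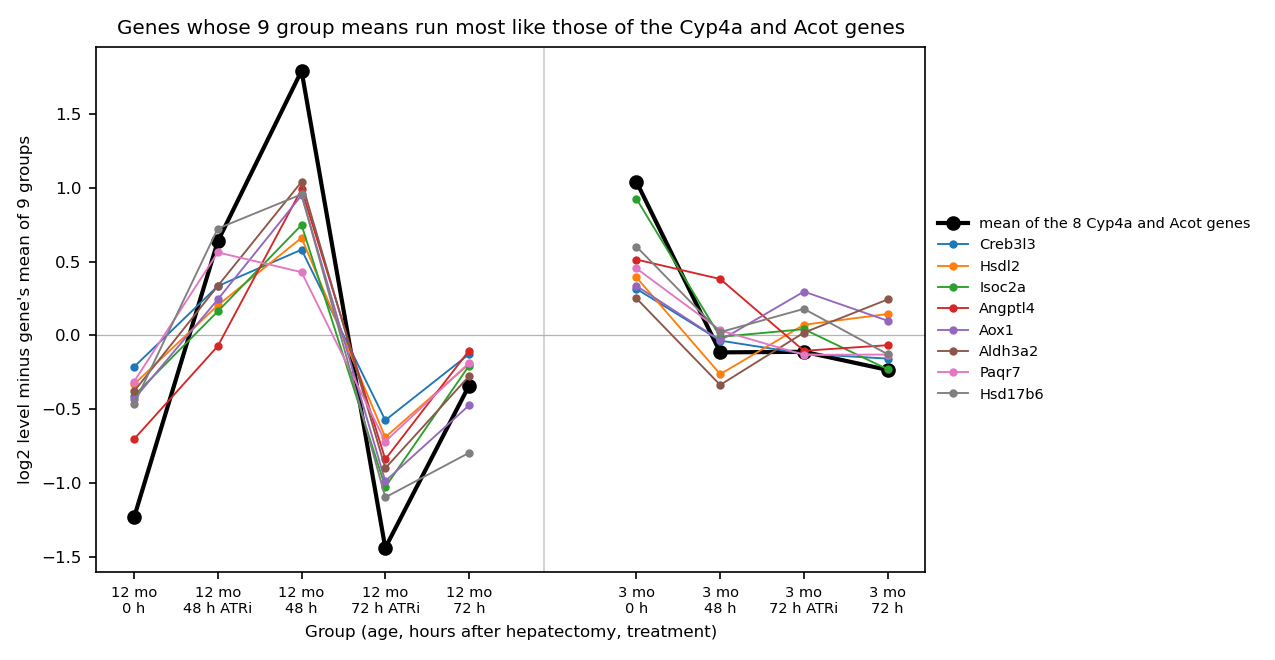
Log2 level minus each gene's mean over the 9 groups (vertical axis), for the mean of the 8 Cyp4a and Acot genes (black) and the 8 other genes with the highest Pearson correlation to it (coloured), 12-month groups left and 3-month groups right of the grey line. Each of the other genes has its lowest mean at 72 h with ATRi in 12-month livers, and all but Paqr7 their 12-month peak at 48 h untreated, with correlations of 0.909 to 0.960.

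Promoter windows of RefSeq (GRCm38.p6, 250 bases before to 50 after a gene start) were searched on both strands for the PPAR response element, a direct repeat of AGGTCA spaced by 1 base (AGGTCANAGGTCA), allowing 2 mismatches over the 12 fixed bases. Windows matched 5 of the 8 genes, and Cyp4a10, Cyp4a14 and Cyp4a31 had none, so their promoters were not searched. Of the windows searched for these genes only that of Acot4 held a match, as did 3.86% of the 32851 windows of the table. It lies on the minus strand, 1 to 13 bases before the start. The 60 bases before the start, read on the plus strand at chr12:84038319-84038378, are shown with the match in capitals.
Acot4: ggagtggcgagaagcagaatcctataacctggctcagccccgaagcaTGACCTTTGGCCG
A single exact AGGTCA, found in 16.3% of all windows, was in those of Acot3 and Acot4. These matches describe letters in a short window and say nothing of binding.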

How the data were processed

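Polyadenylated RNA of 40 mouse liver samples in 9 groups was represented by 12 tables. The authors deposited log2 levels of a value called sigma, per the file headers, as a mean per group and, for 1 group, for 4 single livers. The genome build GRCm38/mm10 comes from the submitters' processing notes. The aligner, counting, scaling and depth are not given in the sources used here, and the group mean deposited beside the 4 livers exceeds their average log2 level by a median of 0.088. Values were used as deposited.

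The members and lists were chosen with earlier results of these data known. Differences are log2 levels of the first-named group less those of the other, counted at 1 or more in 17 comparisons. For pathway genes the test was limma 3.58.1 (R 4.3.3) (weights by number of mice, intensity trend, robust empirical Bayes, two-sided), a fit tested on simulated data. The simulation built in these weights and the same spread in all groups, so it cannot check either for these livers. Each p-value sets the mean of the 4 livers against 1 deposited mean. Its error comes from the spread of the 4 livers and the weight assumed for that mean. Named pathway genes are the 4 per list with the largest range over the 9 means, plus Ppara and Rxra, and the 8 most similar genes by Pearson correlation. Sequences came from GENCODE M21 transcripts and RefSeq promoter windows.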

Additional observations from a re-analysis of the deposited data

Results flagged for a closer look

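Of 36 genes examined for a liver far from the other 3 in the 12-month ATRi group at 72 h (the 8 Cyp4a and Acot genes and the named genes), 2 had such a liver and none of these was a Cyp4a or Acot gene. About 1 in 20 groups is expected to show such a liver by chance. In M545 Ehhadh had 6.09, against 5.797 to 5.847 in the other livers, and Paqr7 had 1.47, against 1.07 to 1.12. In both genes M545 was the highest of the 4.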

How the results depend on the processing

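No paired analysis was possible because the mice shared between 0 h and 72 h are given singly at 72 h for 1 group only, and every other group has 1 mean. Centring each comparison on the median of all genes, or keeping genes with a mean level of 1 or more, moved no count beyond 1.5 times. Of 328 alternative values of the 8 genes' differences, 2 changed sign from a difference of 1 or more and 30 moved by more than the livers' SD. Cyp4a14 in ATRi livers at 72 h against 12-month livers at 0 h lay between −0.18 and 1.13 with 1 liver left out. There the mean of the other livers' log2 levels replaced the deposited mean. In that comparison 1 of the 8 genes differed by 1 or more with the mean of the 4 livers' log2 levels, and 1 to 3 with 1 liver left out. By Spearman correlation 4 of the 8 most similar genes were kept. Giving each mean weight 1 left, of the pathway genes passing limma, 1 higher and 0 lower against 12-month 0 h livers, 4 and 2 against 12-month ATRi livers at 48 h, and 0 and 0 against 3-month ATRi livers at 72 h. Shifting the livers by the offset of the deposited mean gave 9 higher and 3 lower against untreated 12-month livers at 72 h. The share of all genes called under that shift was not counted. With 1 liver left out, higher and lower counts ranged from 0 to 13 and 0 to 16 against untreated 12-month livers at 72 h, 8 to 17 and 20 to 33 against 0 h, 7 to 16 and 9 to 27 against ATRi at 48 h, and 2 to 10 and 8 to 31 against 3-month ATRi livers. Of all genes, these fits called 0 to 28.7%, 32.5 to 51.2%, 22.6 to 44.2% and 9.64 to 39.8%, in that order. The cause of these changes was not tested. Read depth is unknown, so no counting error can be given.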
